A study of Mus musculus with 74 samples.

Results

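H3K9me3 peaks of morulae made by somatic cell nuclear transfer (SCNT) were compared with those of the trophectoderm (TE) of SCNT blastocysts, the outer layer that forms the placenta. The members were chosen by their labels. They are 8 of the 74 libraries of the series, 6 H3K9me3 precipitates of NT-Morula and 2 of NT-TE, which entered the comparison as 1 pooled peak list per group, on the 19 autosomes. The matching inputs numbered 5 for the morula and 2 for TE. Both groups carry the same history, because the recipient oocytes and the cumulus cells (CC) that gave the nuclei came from B6D2F1 females. The reconstructed embryos of both groups were activated for 6 h in 1 mM SrCl2 with 5 µg/mL cytochalasin B. No transgene, knockdown or drug distinguishes them. Morulae were freed of zona and polar bodies, and isolated blastomeres were used. TE cells were separated from loosened blastocysts by micromanipulation, on the basis of their position, size and surface, and cells of unclear type were discarded. The morula list thus comes from cells not sorted by lineage, and the TE list from 1 lineage of a later embryo. H3K9me3 peaks cannot show which cells a library held, and expression was not used here, so the purity of TE was not checked. The other 8 lists of the series appear only where they place a region in time. They are CC, SCNT embryos at 6 and 14 h post activation (hpa), 2-cell, 4-cell and 8-cell embryos, the inner cell mass (ICM) of SCNT blastocysts, and fertilized zygotes at pronuclear stage 5 (PN5) from a C57BL/6 cross.

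H3K9me3 is the trimethylation of lysine 9 on histone H3. It is written by SETDB1 and the SUV39H enzymes, bound by HP1 proteins, and found in heterochromatin, over retrotransposons, satellites, zinc finger gene clusters and the methylated copies of imprinted control regions. In the preimplantation embryo the mark is removed and laid down again as the first lineages form. After SCNT part of the donor cell's H3K9me3 resists this resetting, which is why the mark is followed stage by stage.

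Replicates were pooled before peaks were called, so no value below has a replicate error and no test between morula and TE was possible. Differences are descriptions of 2 lists. The depth of single libraries is not in the lists. The authors drew an equal number of reads for every group, and intervals given below are 95% Wilson intervals that cover counting error only. They treat windows as independent, while adjacent windows can hold the same peak, so intervals for windows may be too narrow. Where a list has no peak, H3K9me3 was not detectable at this depth, and its absence is not shown. The labels give 6 and 2 precipitates, and the study's methods name both a fixed replicate number per stage and a range that takes in 6 and 2, so how many libraries went into the morula list is uncertain.

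The sequences that carry the main contrasts are given first. In 300-base windows, germline promoters marked in TE and not in the morula held a median of 20.5 CpGs. Germline promoters of any class held a median of 17 and all promoters 16. Promoters of any gene marked in TE and not in the morula held a median of 12, under that of all promoters. Those marked in the morula and not in TE held a median of 2. These medians are of promoters with a matched RefSeq window. Below are the 3 germline promoters with the largest difference in covered bases among those marked in TE only. For contrast, the promoter of F7, which encodes coagulation factor VII, follows. All are from RefSeq on GRCm38.p6, 250 bases before to 50 bases after the start. They are given 5′ to 3′ on the gene's strand, with each CpG in capitals.
Tdrkh (chr3:94412994-94413293, + strand, 25 CpGs): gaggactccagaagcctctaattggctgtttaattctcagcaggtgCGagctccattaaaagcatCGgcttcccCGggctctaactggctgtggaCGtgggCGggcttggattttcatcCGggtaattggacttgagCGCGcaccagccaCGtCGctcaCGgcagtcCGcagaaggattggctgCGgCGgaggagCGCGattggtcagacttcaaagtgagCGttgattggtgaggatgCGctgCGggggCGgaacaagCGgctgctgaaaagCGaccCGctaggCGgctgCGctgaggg
Mael (chr1:166238695-166238994, - strand, 24 CpGs): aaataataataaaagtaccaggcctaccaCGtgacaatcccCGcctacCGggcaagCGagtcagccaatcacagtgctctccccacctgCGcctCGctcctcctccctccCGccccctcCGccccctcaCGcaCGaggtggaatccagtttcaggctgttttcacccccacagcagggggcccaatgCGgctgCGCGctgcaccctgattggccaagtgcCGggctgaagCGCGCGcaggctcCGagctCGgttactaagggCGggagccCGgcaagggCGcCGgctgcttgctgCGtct
Gpat2 (chr2:127424949-127425248, + strand, 15 CpGs): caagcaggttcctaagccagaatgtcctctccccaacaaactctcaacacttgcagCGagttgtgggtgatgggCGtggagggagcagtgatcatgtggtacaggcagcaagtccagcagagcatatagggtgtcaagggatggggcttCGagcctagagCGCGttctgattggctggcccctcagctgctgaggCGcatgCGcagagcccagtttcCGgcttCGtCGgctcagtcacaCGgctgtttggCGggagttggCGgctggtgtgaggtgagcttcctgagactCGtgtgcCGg
F7 (chr8:13025784-13026083, + strand, 5 CpGs): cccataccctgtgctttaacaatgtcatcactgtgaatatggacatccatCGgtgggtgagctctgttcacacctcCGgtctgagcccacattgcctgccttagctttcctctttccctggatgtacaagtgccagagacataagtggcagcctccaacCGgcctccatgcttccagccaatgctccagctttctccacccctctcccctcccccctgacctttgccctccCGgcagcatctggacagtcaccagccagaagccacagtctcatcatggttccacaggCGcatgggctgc
TE peaks covered 300 of the 300 bases of the Tdrkh window, 195 of the Mael window and 286 of the Gpat2 window, and morula peaks covered 0 in each. The F7 window was the reverse, with 300 bases covered in the morula and 0 in TE.

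The next sequences show the peak of highest fold in the morula that no TE peak touched and, for contrast, the second and the third highest such peaks of TE, from GRCm38.p6 on the + strand, with the longest alternating AT run in capitals where it reached 12 bases. The TE peak of rank 3 is shown by its central 200 bases.
Morula only, rank 1 (chr9:5117154-5117331): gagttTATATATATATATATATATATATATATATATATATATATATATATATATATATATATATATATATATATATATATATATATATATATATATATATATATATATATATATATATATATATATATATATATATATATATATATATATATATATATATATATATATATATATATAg
TE only, rank 2 (chr1:101461592-101461775): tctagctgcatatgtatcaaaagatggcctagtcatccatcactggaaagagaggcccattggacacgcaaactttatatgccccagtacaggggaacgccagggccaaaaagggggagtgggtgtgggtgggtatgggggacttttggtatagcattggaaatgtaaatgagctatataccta
TE only, rank 3 (chr6:147236790-147236989): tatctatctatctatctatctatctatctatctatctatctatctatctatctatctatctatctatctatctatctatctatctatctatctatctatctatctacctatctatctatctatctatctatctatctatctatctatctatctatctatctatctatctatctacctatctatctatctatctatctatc

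To ask how much H3K9me3 both lists had in common, covered length was compared first. TE had less. Morula peaks covered 188 Mb of autosomes, 7.86% of the 2396 Mb assembled, and TE peaks covered 145 Mb (6.06%), which gave a TE to morula ratio of 0.771. The ratio was below 1 on 19 of 19 autosomes, from 0.679 on chromosome 14 to 0.867 on chromosome 10. Shared length was 96.9 Mb, so that 51.5% of the morula length was also covered in TE and 66.7% of the TE length in the morula, with a Jaccard index of 0.41. The spread over autosomes was narrow, 45.8% to 58.1% for the first share and 64.8% to 67.9% for the second. The morula list held 183163 autosomal peaks and the TE list 139367. Median widths were 614 and 612 bp, and the median fold enrichments given by the authors were 2.98 and 3, so the lists differed in the number of peaks and hardly in their typical size.

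**Figure D1:**
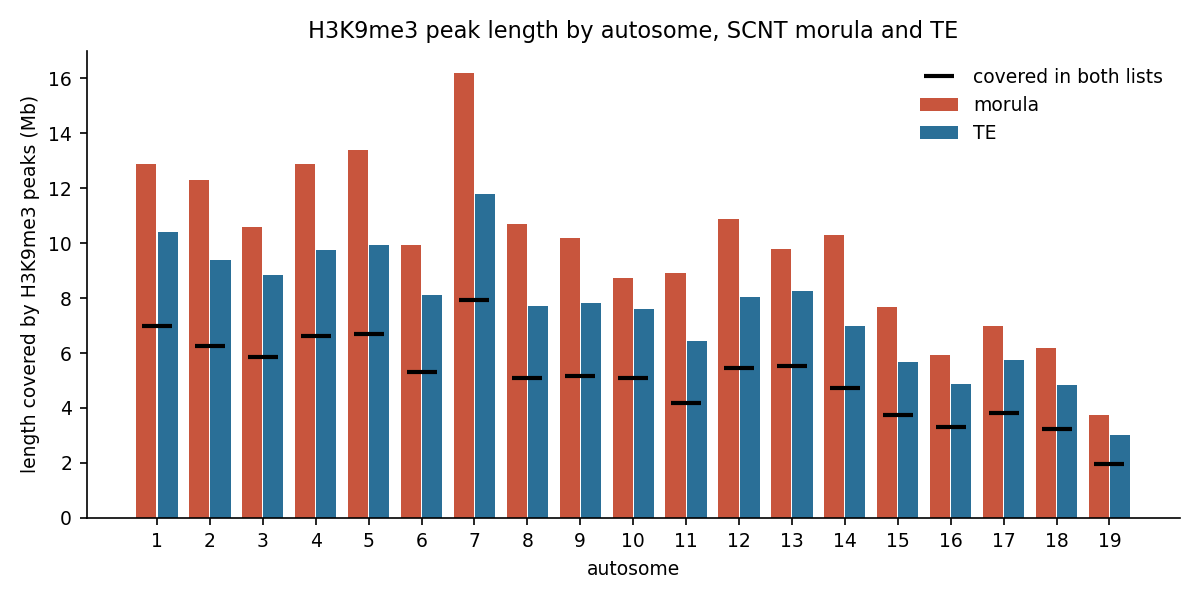
Length covered by H3K9me3 peaks (Mb, vertical axis) on each of the 19 autosomes (horizontal axis), for SCNT morula (red bars), TE (blue bars) and both lists at once (black lines). The TE bar is the lower one on 19 of 19 autosomes, with ratios from 0.679 to 0.867.

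In 1-kb windows, called marked when peaks covered at least 50% of them, 87066 windows were marked in both lists, 80598 in the morula only and 42184 in TE only. The morula-only and TE-only classes were 3.36% and 1.76% of the 2395928 windows. Of the morula windows, 51.9% (95% interval 51.7 to 52.2) were also marked in TE, and of the TE windows, 67.4% (67.1 to 67.6) were also marked in the morula. Part of the windows of 1 list held bases of the other list or lay close to it. The matching shares over all windows were not taken, so the next values describe position only. Some TE peak bases lay in 43.4% of the morula-only windows and some morula peak bases in 62.0% of the TE-only windows. Next to a shared window lay 25.1% of the morula-only and 33.9% of the TE-only windows. Windows more than 10 kb from any peak of the other list were rare, 6.18% and 5.75%.

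Sharing followed fold and width. With windows ranked by fold into 10 equal classes, morula windows of the lowest class were also marked in TE in 18.8% of cases, and those of the highest class, at a median fold of 4.91, in 90.3%. The same order held for TE windows, from 47.3% to 83.5%. Morula peaks under 300 bp shared 22.7% of their bases with TE and peaks of 10 kb or longer 84.4%. Of the morula peaks of at least 10 kb, 370 in number, none lacked TE bases, the median was covered to 88.5% in TE, and 17 were covered to less than 50%. Of the 331 TE peaks of at least 10 kb, 30 were covered to less than 50% in the morula and 1 not at all. That peak, at chr9:108644457-108657467, spans the 5′ part of Arih2, which encodes an ariadne-family ubiquitin ligase, with a fold of 4.21.

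**Figure D2:**
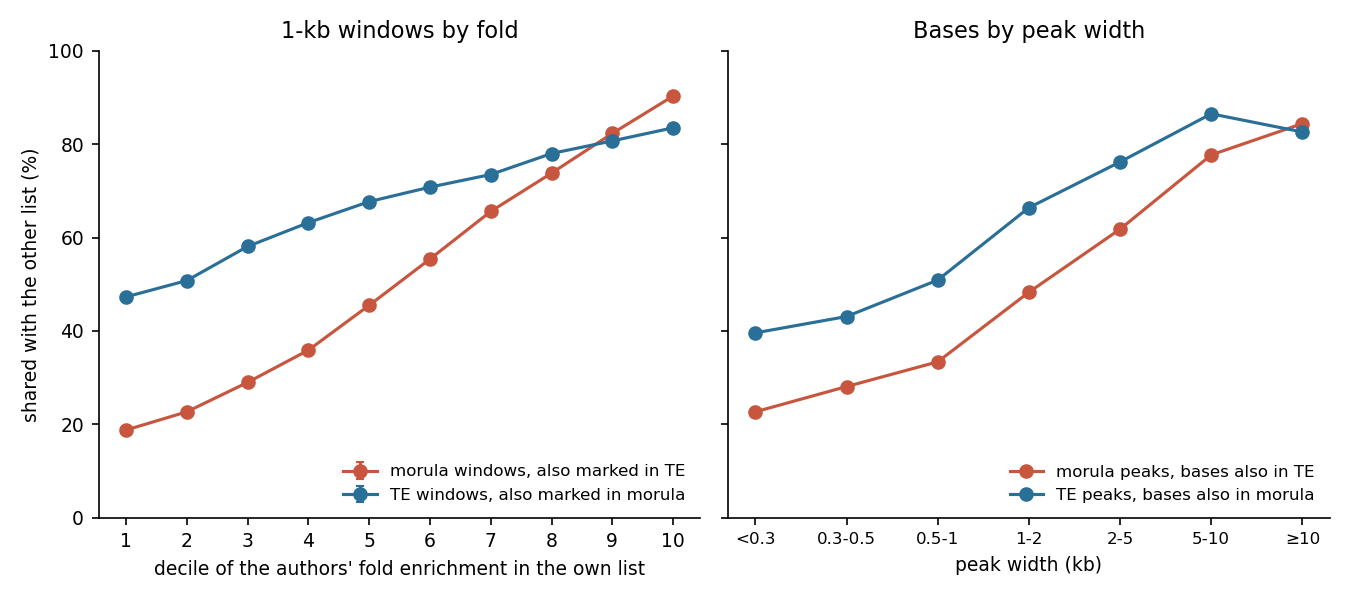
Share of H3K9me3 found in the other list (%, vertical axes) by class of fold enrichment (10 equal classes, lowest first) for 1-kb windows (left; bars are 95% Wilson intervals, smaller than the points) and by peak width in kb for bases (right), for morula (red) and TE (blue). Sharing of morula windows goes from 18.8% to 90.3%, and that of TE windows from 47.3% to 83.5%.

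The classes differed in sequence. Shared windows had 13.8 CpGs per kb and 64.9% soft-masked (repeat) bases. Morula-only windows had 8.08 and 44.0%, and TE-only windows had 9.95 and 51.3%. All windows had 8.51 CpGs per kb and 33.5% soft-masked bases, so the morula-only class was close to them in CpGs and above them in repeats. By GC content, the morula was marked more often than TE from 35% to 60% GC, and TE more often at both ends. In windows of 60% GC or more, 9.23% were marked in TE and 7.01% in the morula, 94.2% of the morula windows were also TE windows, and 304 windows were marked in TE only against 47 in the morula only. Below 35% GC the shares were 0.438% in TE and 0.349% in the morula. Windows centred within 1 kb of a gene start were the least shared, with 31.2% (28.1 to 34.5) of morula windows also marked in TE, against 53.6% between genes, 47.0% in introns and 50.9% in exons.

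Other stages place the classes in time. Shared windows were marked at the 8-cell stage in 61.5% of cases, morula-only windows in 37.5% and TE-only windows in 17.6%, against 6.11% of all windows. In ICM, the lineage that forms the embryo proper, the order was different, with 82.7% of shared, 23.9% of morula-only and 47.2% of TE-only windows marked. Thus 61372 morula-only windows were marked neither in TE nor in ICM, and 19893 TE-only windows were also marked in ICM. In CC the shares were 59.4%, 29.9% and 34.2%. Of all windows, 5.82% were marked in ICM and 8.25% in CC. No list from CC to the 8-cell stage marked 8.62% of the shared, 26.4% of the morula-only and 38.7% of the TE-only windows. This last share was not taken over all windows. These classes are defined by the morula and TE lists, so the shares describe levels in other lists and are no test.

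**Figure D3:**
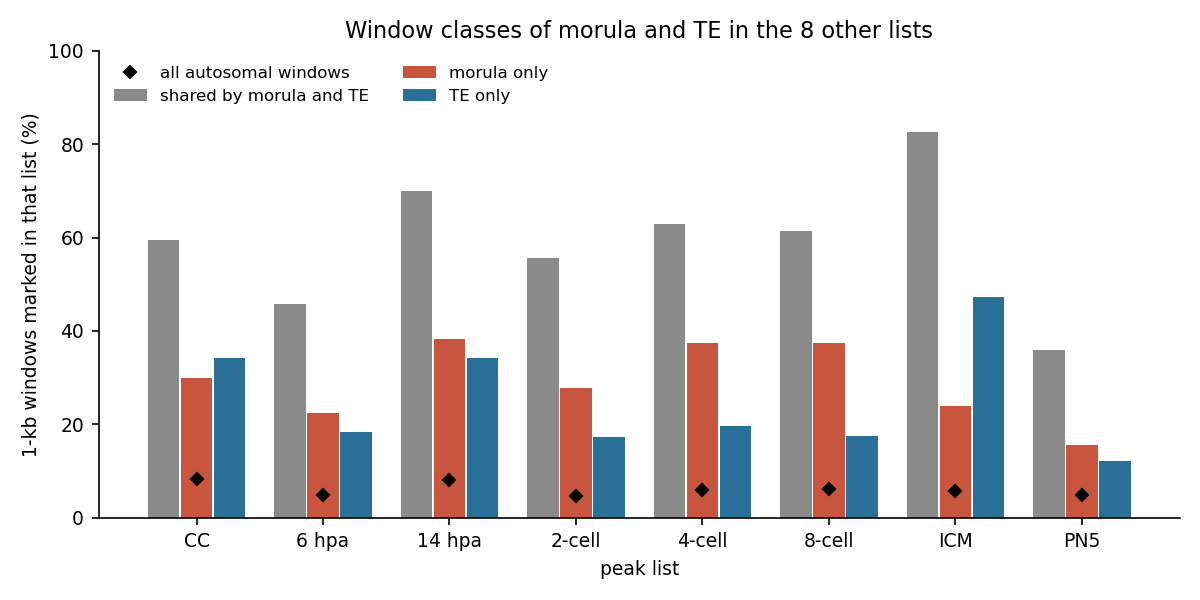
Share of windows marked (%, vertical axis) in each of the 8 other peak lists (horizontal axis), for windows shared by morula and TE (grey), morula only (red) and TE only (blue); diamonds give the share of all autosomal windows. At the 8-cell stage the TE-only bar (17.6%) is under the morula-only bar (37.5%), and in ICM it is above it (47.2% and 23.9%).

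Long stretches showed the contrast most plainly. Of 62698 runs of morula-only windows, 49707 were a single window and 375 had 5 or more. Of 36305 TE-only runs, 31691 were single and 94 had 5 or more. The 5 longest morula-only runs had 10 or 11 windows. They lay at chr4:44466001-44477000 and chr4:152833001-152843000 with no annotated gene, at chr2:179738001-179748000 in an intron of Cdh4, at chr11:115013001-115023000 over Cd300ld2 and Cd300ld4, and at chr11:71933001-71943000 in the noncoding gene 4930401O10Rik. Between 65.5% and 88.4% of their bases were also covered at the 8-cell stage, and in the other two runs of 10 windows 86.3% and 81.5%. The longest TE-only runs were at chr9:114404001-114422000 over Glb1 and Tmppe (18 windows), chr9:108644001-108657000 over Arih2 (13), chr9:122848001-122859000 over Zfp445 (11), chr7:43178001-43188000 over Zfp936 (10) and chr11:3640001-3649000 over the noncoding gene Tug1 (9). Runs of equal length were ordered by the share of their bases covered. These 5 were covered to at least 84.5% in ICM and to at most 0.545% at the 8-cell stage, and the next TE-only runs of 9 windows to 77.7% and 90.9% in ICM and to 0 at the 8-cell stage.

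At 1-Mb scale, 1910 of 2403 bins were less covered in TE and 493 more. The bins with the largest changes, chosen after their values were seen, were of different gene content. Chr4:153000001-154000000 went from 521 kb in the morula to 241 kb in TE. On chromosome 14, the first 8 Mb, where several Gm-named gene families lie, went from 1731 to 514 kb (ratio 0.297), and the rest of the chromosome had a ratio of 0.756. The largest difference towards TE was at chr13:62000001-63000000, from 102 to 185 kb, a bin with Zfp808, Zfp934 and Zfp935. Next in the same direction came chr5:104000001-105000000, from 106 to 183 kb, and chr13:67000001-68000000, from 122 to 188 kb, where 23 of 32 protein-coding genes are named Zfp.

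Over genes, the share of each annotated span covered by peaks was set side by side, and a gene was called when it changed by at least 50 percentage points and 1000 bases. Of 20807 protein-coding genes, 74 were called lower in TE (0.356%) and 28 higher (0.135%). The lower genes had a median coverage of 75.9% in the morula, 4.63% in TE, 12.1% in ICM, 65.2% at the 8-cell stage and 53.1% in CC, and 30 of them had no peak base in TE. The higher genes had medians of 2.19% in the morula, 77.6% in TE, 60.3% in ICM, 0 at the 8-cell stage and 31.2% in CC, and 22 of 28 were covered to less than 10% at the 8-cell stage. Both sets were short genes, with median lengths of 3992 and 4356 bases. The rule favours this, because 50 points of a long span are hard for peaks to cover. Small changes balanced over all genes, with 4869 more covered in TE and 4799 less, while covered bases summed gene by gene had a TE to morula ratio of 0.778.

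Many genes lower in TE lay near another such gene. At a spacing of at most 1 Mb they fell into 34 loci, and 53 of the 74 shared a locus with another. The matching share for all genes was not taken. Some loci held members of 1 gene family, and others held unlike genes, such as Hcst and Scgb2b3. Olfr1415, an olfactory receptor gene at chr1:92489101-92496101, had the largest change among genes of at least 5 kb, from 100% covered in the morula to 18.7% in TE, with 89.0% at the 8-cell stage and 8.21% in ICM. The genes Cd300ld3, Cd300c2 and Cd300e of a cluster on chromosome 11, which encode immunoglobulin-like receptors of myeloid cells, were called. Cd300ld3 went from 91.2% to 28.3%, Cd300c2 from 64.4% to 4.52% and Cd300e from 60.2% to 9.86%. A keratin cluster elsewhere on chromosome 11 gave Krt31, Krt32, Krt35, Krt36 and Krt13, keratins of hair and of stratified epithelium. Krt35 went from 100% to 41.4% and Krt32 from 79.0% to 20.7%.

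Further loci showed the same direction. The kallikrein proteases Klk5 (56.2% in the morula, 0 in TE), Klk6 (56.7%, 4.74%), Klk12 and Klk1b3 lie together on chromosome 7. On chromosome 15, Cyp11b2, the aldosterone synthase, was covered to 59.9% in the morula and had no peak base in TE, with its neighbours D730001G18Rik (62.1%), Ly6g (62.0%) and Slurp2 (92.3%) also at 0 in TE. Trem3, a receptor of myeloid cells, went from 59.2% to 6.30%. Gm3696, on chromosome 14, had the largest difference in bases, 58.4% of its 17414 bases in the morula against 0 in TE, and Gm3194 followed with 59.0% and 1.68%. Gm8024 (62.3%, 0), Gm3047 (60%, 0) and Gm3072 (72.7%, 12.4%) are from the same chromosome. Genes of such families have near-identical copies, and how the authors treated reads with several mapping positions was not used here, so the values of single copies are uncertain.

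Genes higher in TE included zinc finger genes. At the same spacing the 28 genes fell into 23 loci, and 8 of them shared a locus with another. No matching share for a set of this size was taken. Zfp445, a KRAB zinc finger protein that protects genomic imprints, had the largest difference in bases, from 18.4% of its 21478 bases in the morula to 78.8% in TE, with 91.3% in ICM, 14.8% at the 8-cell stage and 44.4% in CC. Zfp809, which silences endogenous retroviruses, went from 4.38% to 64.4%. Zfp263 went from 16.9% to 88.0%, and Zfp646 and Zfp747, at 0 in the morula, reached 61.1% and 69.0%. Zbtb39, another zinc finger gene, went from 0 to 71%. Among the other genes, Vmn2r-ps159 went from 13.6% to 91.2%, Mettl27 from 14.4% to 82.2%, Gm3604 from 26.1% to 90.2%, BC005561 from 7.27% to 60.9% and 5430403G16Rik from 13.0% to 64.4%. Gm10717, Gm10720 and Gm17535 lie within chr9:3015654-3035805, at the centromeric end, where the fold in TE was 1.59 to 1.70, under the TE median of 3.

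**Figure D4:**
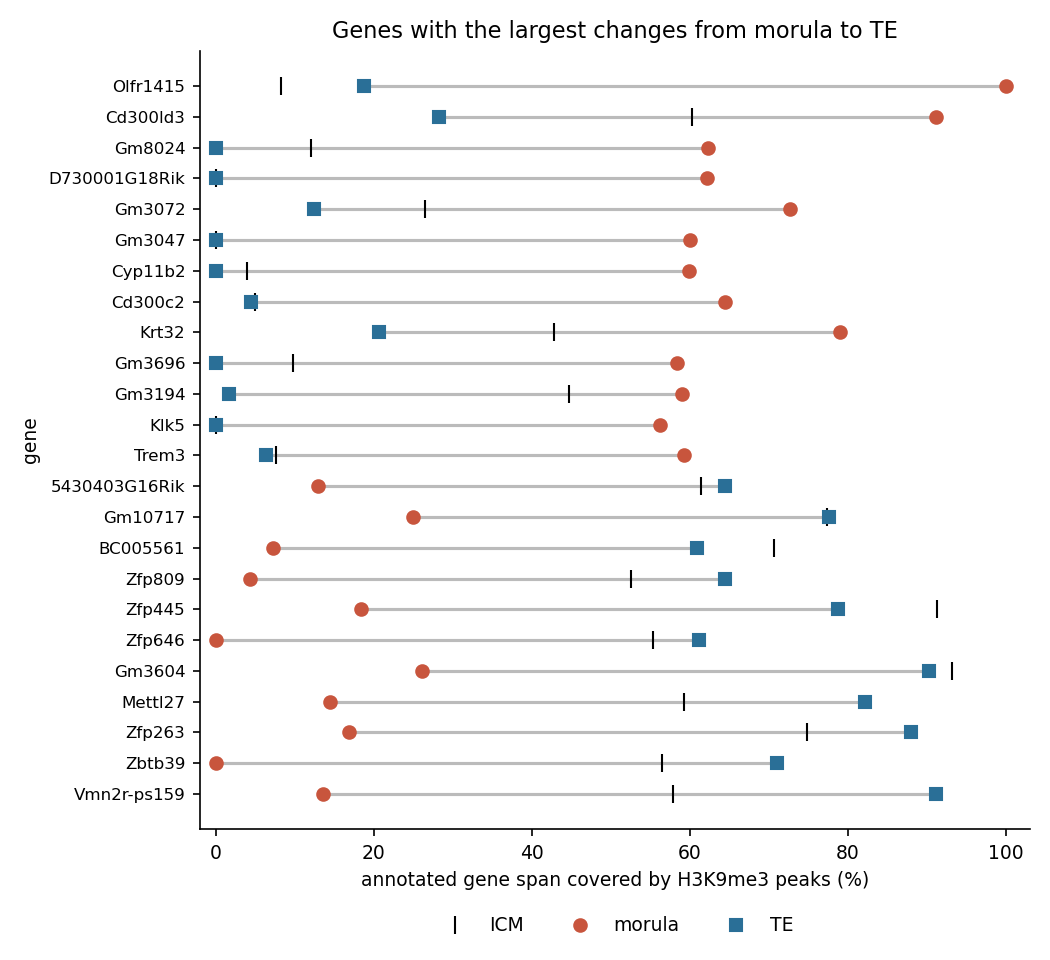
Share of the annotated gene span covered by H3K9me3 peaks (%, horizontal axis) for the genes with the largest changes in percentage points or in bases (vertical axis), in morula (red circles), TE (blue squares) and ICM (black ticks). The upper 13 genes have the morula at the right of TE (Olfr1415 at 100% and 18.7%), and the lower 11 genes have TE at the right (Zfp263 at 88.0% and the morula at 16.9%).

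Further genes called higher in TE, chosen after their values were seen, had low values at the 8-cell stage. Actb and Actg1, which encode the cytoplasmic actins, went from 0 to 70.2% and from 14.7% to 67.4%. Jun, a component of the AP-1 transcription factor, went from 0 to 65.4%, and Cldn4, a tight junction claudin, from 0 to 76.7%. Their ICM values were 0, 22.2%, 0 and 17.1%. Utp3 (0, 87.8%), Taf7 (0, 77.7%) and Atxn7l3b (0, 71.4%) had no peak base in the morula. At the 8-cell stage Actg1 had 17.6%, and Actb, Jun, Cldn4, Utp3, Taf7 and Atxn7l3b had 0. Over all protein-coding genes, exonic bases were covered to 3.29% in the morula and 2.93% in TE and intronic bases to 4.82% and 3.66%, an exon to intron ratio of 0.684 in the morula, 0.800 in TE, 0.731 in ICM, 0.796 at the 8-cell stage and 0.871 in CC. Just inside the threshold were Gm7954 at -50.2 points and 9130019O22Rik at 50.1, and just outside it Gm10128 at -49.8 and Zfp599 at 49.6.

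For genes named Zfp, most of them zinc finger transcription factors and many with a KRAB domain that recruits the H3K9 methylation machinery, TE was the higher list. Of 383 genes, 5 were called higher and 0 lower, where all genes gave 28 (0.135%) and 74 (0.356%) of 20807. More bases were covered in TE in 207 and fewer in 59, against 4869 and 4799 of all genes. With bases shared by overlapping genes counted once, their covered length went from 1005 to 1330 kb, a ratio of 1.32 against 0.768 over all genes. ICM had 1302 kb and the 8-cell list 732 kb. The ratio was 1.97 on chromosome 13, 2.31 on chromosome 9, 1.80 on chromosome 17 and 1.02 on chromosome 4, where 30 of the genes lie. Without chromosome 4 it was 1.43. A difference of at least 30 points and 1000 bases towards TE was seen in 19 genes and one towards the morula in 0, while over all genes the counts were 71 and 232. The clustered protocadherins, cell adhesion genes on chromosome 18, have overlapping spans, and with each base counted once they went from 67.2 to 73.8 kb (ratio 1.1), with 0 of 57 called. The subclusters differed, from 45.9 to 35.6 kb (0.776) over the Pcdha genes and from 19.7 to 36.8 kb (1.87) over the Pcdhg genes.

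Other clustered families went the way of the whole genome or beyond it. Covered length over 1087 olfactory receptor genes went from 443 to 256 kb (ratio 0.578, each base counted once), with 1 gene lower (74 of 20807 over all genes, 0.356%) and 0 higher. For 119 vomeronasal type 2 receptor genes it went from 380 to 289 kb (0.760), for 207 type 1 genes from 133 to 97 kb (0.729) and for 64 defensin genes from 16.1 to 9.10 kb (0.565). The placental clusters, which hold the prolactin-like, Psg, Ceacam and cathepsin genes expressed in later trophoblast, went from 119 to 57.7 kb (0.487), with 25 of 62 genes less covered in TE and 3 more, and 0 called. Psg26 went from 58.9% to 10.6% and Psg27 from 55.5% to 9.36%. Once both lists were made equally long, the olfactory ratio, summed gene by gene, was 0.945 in place of 0.581.

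Promoters, the bases within 1 kb of a gene start, counted as marked if a single peak spanned 50% or more of their bases, or if 50% or more of a peak fell inside them. By this rule 1063 of 20807 promoters were marked in the morula (5.11%, 95% interval 4.82 to 5.42) and 859 in TE (4.13%, 3.87 to 4.41), 441 of them in both. Marked in the morula only were 622 promoters (2.99%) and in TE only 418 (2.01%). With lists of equal length the order turned, with 329 in the morula only and 547 in TE only. CpG content separated the directions. Of the 622, 536 were low-CpG, 63 intermediate and 23 high-CpG promoters. Of the 418, 168 were low, 94 intermediate and 156 high. Among the 10385 high-CpG promoters, the share marked was 0.713% (0.568 to 0.894) in the morula and 1.99% (1.74 to 2.28) in TE, with 1.56% in ICM. Among the 6591 low-CpG promoters it was 12.6% (11.8 to 13.4) in the morula, 7.01% (6.42 to 7.65) in TE and 7.33% in ICM. At equal length the low-CpG counts came closer, 278 in the morula only and 258 in TE only, and the high-CpG counts were 18 and 170. Morula-only promoters held a median of 11 CpGs in 2000 bases and TE-only promoters 37.5, both under the 64 of all promoters. Marked in TE only were 1.5% of high-CpG, 2.45% of intermediate and 2.55% of low-CpG promoters. In the morula only these shares were 0.221%, 1.64% and 8.13%. CpG islands showed the same direction as high-CpG promoters. Of 19627 islands, 340 were marked in the morula and 493 in TE, 86 in the morula only (0.438%) and 239 in TE only (1.22%). The 8-cell list marked 532 islands, ICM 446 and CC 911, so the morula count was under each of these as well.

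The 10 promoters with the largest difference towards the morula had 2000 covered bases there and 0 in TE. These were Gsdma2, a gasdermin gene, F7, Gm10128, Gm5796, Cd300ld2, Krt36, Cd300c2, Psg27, a pregnancy-specific glycoprotein gene, Smok2b and Scgb1b24, a secretoglobin gene. Of these 10, 10 were low-CpG. Towards TE, Catsperg1, a subunit of the sperm calcium channel, Arih2, Tdpoz2, Tmprss12, 4833420G17Rik and Taf7 went from 0 to 2000 bases, Gm17535 from 0 to 1889 and Pcdhga11 from 0 to 1787. Another was Bglap3, an osteocalcin-related gene that went from 254 to 2000 bases. Tdpoz2, a gene of the family active in 2-cell embryos, was at 0 over gene and promoter in the morula and at 100% of the gene and 2000 promoter bases in TE. Its neighbour in the list, Tdpoz3, went from 454 promoter bases to 0, and Usp17lb, a deubiquitinase gene of the same stage, from 65.7% of the gene to 0.

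Germline promoters were the list with the highest share marked in TE only. These genes act in meiosis and in the piRNA pathway, which silences transposons in germ cells, and in somatic cells their CpG-rich promoters are kept silent. Of 50 promoters, 4 were marked in the morula and 20 in TE, so that 16 (32.0%, against 2.01% of all promoters) were marked in TE only and 0 in the morula only. The count was 3 when peaks together had to cover 50% of the promoter. Tdrkh, a partner of the PIWI proteins, went from 0 to 1628 covered promoter bases and had 1642 in ICM, 0 at the 8-cell stage and 1186 in CC. Mael, a piRNA factor, went from 0 to 1143, with 561 in ICM and 527 at the 8-cell stage. Gpat2, also needed for piRNAs, went from 282 to 1036. Ddx4, the germ cell RNA helicase, went from 0 to 540 (1227 in ICM, 793 in CC), Mov10l1, the piRNA helicase, from 0 to 581, and Tdrd1, a tudor protein, from 0 to 349.

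Meiotic genes were among them too. The recombinase gene Dmc1 went from 0 to 213 bases, the synaptonemal complex genes Sycp1 and Sycp3 from 0 to 262 and 395, Hormad1, of the meiotic chromosome axis, from 0 to 322, and Mei1, needed for meiotic breaks, from 0 to 541. The others were Slc25a31, Ctcfl, Tex101, Tex15 and Rpl10l. Marked in both lists were Sycp2, Fkbp6, Stag3 and Tdrd9. Fkbp6 went down from 1901 to 1143 promoter bases. Sycp2 went up from 169 to 924, Stag3 from 498 to 734 and Tdrd9 from 265 to 606. Over the gene spans, where 35 of 50 genes held peak bases, covered length had a TE to morula ratio of 0.995, with 0 genes called. In ICM 17 of the 50 promoters were marked, at the 8-cell stage 5 and in CC 14. Of all promoters, 4% were marked in ICM, 6.8% at the 8-cell stage and 7.83% in CC. The ICM and TE comparisons share the morula list, so the ICM values stand beside them and are no separate support.

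Short motifs were counted in the RefSeq promoter windows, of which 13566 could be matched to a protein-coding gene. CACGTG, an E-box that reads the same on both strands, was in 8 of the 12 matched germline promoters of the TE-only class (66.7%), in 29 of the 241 TE-only promoters (12%), in 9 of the 350 morula-only promoters (2.57%) and in 8.66% of all. TCCCGC or its reverse complement, an E2F-type motif, was in 9 of the 12 (75.0%), in 29.5% of TE-only and 3.71% of morula-only promoters, and in 29.2% of all. Among all high-CpG promoters the shares were 11.1% and 42.7%. Among the 39 matched germline promoters of any class, 14 held CACGTG (35.9%) and 16 TCCCGC (41%). Of the windows printed above, Mael holds both motifs, Gpat2 TCCCGC only, and Tdrkh and F7 neither. The motifs can share at most 1 base with each other, and a match describes letters and no binding.

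**Figure D5:**
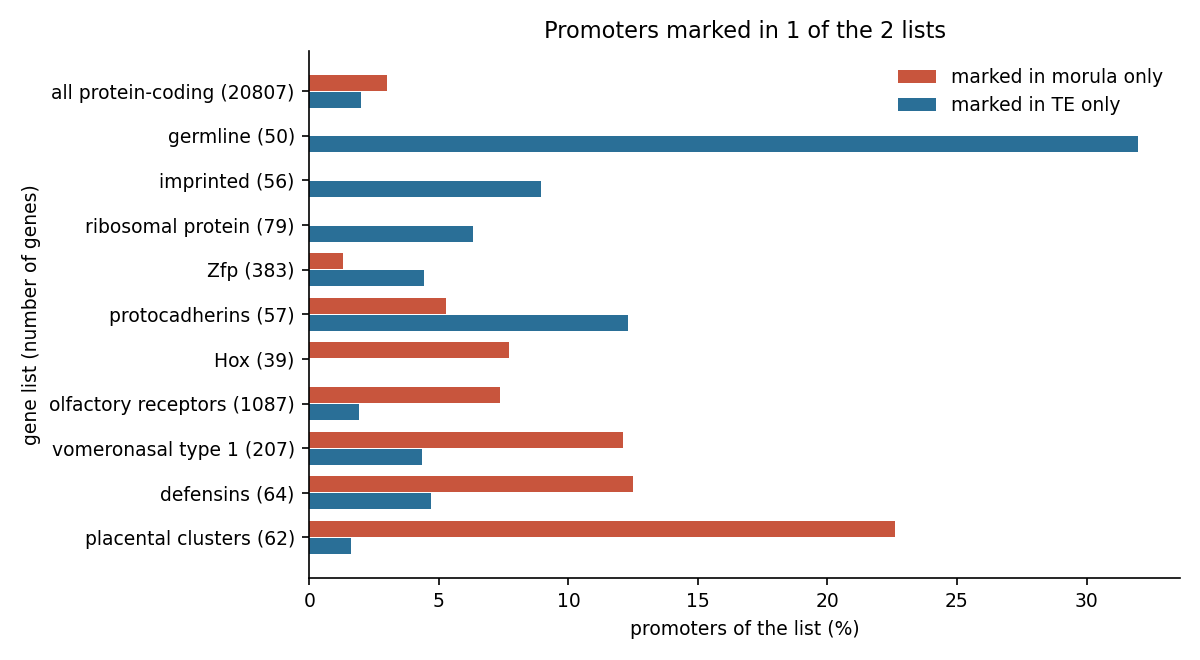
Share of the promoters of each gene list (%, horizontal axis) marked in the morula only (red) or in TE only (blue), with the number of genes in parentheses (vertical axis). Germline promoters are at 32.0% in TE only and 0 in the morula only, placental clusters at 1.61% and 22.6%, and all protein-coding genes at 2.01% and 2.99%.

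Imprinted genes, expressed from 1 parental copy, had 10 of 56 promoters marked in both lists, against 441 of 20807 over all genes. Among the 10 were Peg10, Peg3, Zrsr1 and Nnat, which lie at or near germline imprint control regions. Zrsr1 and Peg10 were covered over 2000 promoter bases in both, and Nnat over 1511 bases in the morula and 2000 in TE. Marked in TE only were 5 (8.93%) and in the morula only 0. Igf2r went from 0 to 834 bases, Cdkn1c from 0 to 814, Inpp5f from 730 to 1146, Grb10 from 0 to 331 and Dio3 from 0 to 181. ICM held 1035 bases at Inpp5f, 205 at Igf2r and 0 at Cdkn1c, Grb10 and Dio3. Of 79 ribosomal protein genes, 11 had any peak base, of which 10 had none in the morula and so could only be higher in TE. Of their promoters 5 (6.33%, against 2.01% of all) were marked in TE only, among them those of Rpl23a, Rpl39l, Rps3a1 and Rpl10l, the last also in the germline list.

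In the other direction, 14 of the 62 placental cluster promoters (22.6%, against 2.99% of all) were marked in the morula only and 1 in TE only. Psg27 had 2000 bases in the morula and 0 in TE, Psg21 1875 and 101, and Psg26 1450 and 0. CC marked 27 of the 62, against 7.83% of all promoters, with 2000 bases at Psg26. Of the olfactory receptor promoters, 80 (7.36%) were marked in the morula only and 21 (1.93%) in TE only, and of the vomeronasal type 1 promoters 25 (12.1%) and 9 (4.35%). Defensins had 8 of 64 (12.5%) in the morula only and 3 (4.69%) in TE only. Low-CpG promoters of all genes were at 8.13% in the morula only and 2.55% in TE only. The families were not matched for CpG class. Hox genes, which pattern the body axis, had 3 of 39 in the morula only (7.69%, against 2.99% of all promoters). Hoxa6 and Hoxb1 were among these 3, and 0 Hox promoters were marked in TE. At the 8-cell stage 18 of the 39 were marked, against 6.8% of all promoters.

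Regulators of the first lineages held little H3K9me3 in either list. Of 30 trophectoderm genes, 14 had any peak base, 0 were called, and 0 promoters were marked. Of the 14, 12 had more bases in TE, but 9 of these had none in the morula and could only be higher, and over all genes 4869 had more and 4799 fewer. The list's summed length was lower in TE, 205 kb against 325 kb in the morula, most of it in Fgfr2. Krt8, a keratin of the trophectoderm, went from 0 to 12.9% of its span, Cdx2, its master regulator, from 0 to 6.39% (8.01% in ICM), Klf5 from 0 to 3.90% and Cdh1, E-cadherin, from 0.664% to 3.04%. Bmp7, Dab2, Dppa1, Elf5, Gata3 and Lgals3 were at 0 in the morula and between 0.519% and 4.63% in TE, Ddah1 and Wwtr1 had 1.03% and 2.66% in the morula and 2.50% and 4.74% in TE, and Slc2a3 stayed under 0.4%. Fgfr2 went from 10.8% to 6.30% over an annotated span far longer than its exons. Of 25 pluripotency genes, 3 had any base. Tet1, which starts DNA demethylation, had 0 of 2000 promoter bases in the morula, 1070 in TE and 729 in ICM. Tet2 went from 0.250% to 6.93% of its span, and Esrrb from 1.1% to 0.816%. Of 16 primitive endoderm genes, 7 had any base (Col4a2, Cubn, Dab2, Gata4, Hnf4a, Lama1 and Lrp2), none above 8.25% of its span in the morula or 4.58% in TE.

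Some groups with a part in H3K9me3 or in trophoblast stood without a call. Of 31 genes of the H3K9 methylation machinery, 12 had any base and 0 were called. Of the 12, 6 were more covered in TE and 6 less. Setdb1 went from 1.81% to 6.21% of its span, and Atf7ip, a partner of SETDB1, from 584 to 1663 promoter bases. In the other direction, Setdb2 went from 2.41% to 0.489% of its span and Ehmt2 from 2.49% to 0. Of 67 replication-dependent histone genes, 2 had any base. Of 16 later trophoblast genes, Syna, a syncytin gene, went from 88.8% to 40.9%, under the 50 points of a call, and Tpbpa, a marker of the spongiotrophoblast, had 307 promoter bases in the morula and 0 in TE.

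The 3 peaks of highest fold in the morula with no TE overlap held long AT runs, of 172, 165 and 124 bases. Of the 88222 such peaks, 19 had a fold of at least 10, and the highest reached 150, against a highest fold of 27.1 in the whole TE list. The first, printed above, lies 181186 bp from the nearest protein-coding gene, Casp1, and is 178 bases long. The next were at chr9:18460240-18460431 in an intron of Zfp558 (fold 125), chr1:189700764-189700932 near Cenpf (106), chr9:40250713-40250860 near Scn3b (90.9) and chr8:58517828-58518267 in an intron of Galntl6 (76.7). The first 4 were covered to at least 85.9% in the 8-cell list and had no base in ICM. An AT run of 20 bases or more was in 26 of the 100 morula-only peaks of highest fold and in 1 of the 100 of TE, but in 0.352% of all morula peaks and 0.331% of all TE peaks.

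Of the 41950 TE peaks without morula overlap, 0 reached a fold of 10 and the highest had 9.28, at chr8:66312600-66313464 in an intron of March1, which encodes a membrane-bound ubiquitin ligase. Then came chr1:101461592-101461775 (8.29) and chr6:147236762-147237018 (7.88, a TATC repeat, near Pthlh), both printed above. The other peaks were on chromosome 18 in the noncoding gene AC134458.2 (7.37) and at chr5:150281176-150281430 in an intron of Fry (7.20). The peaks of rank 2, 3 and 5 were also covered in ICM, to between 61.1% and 90.6%, and those of rank 1, 2 and 4 at the 8-cell stage, to 83.2%, 78.3% and 100%.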

How the data were processed

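H3K9me3 was measured by ULI-NChIP-seq (native chromatin cut with micrococcal nuclease). The authors trimmed reads with Cutadapt 1.16, aligned them to mm10 with BWA mem, merged replicates with SAMtools, removed duplicates and drew equal read numbers with Picard, and called broad peaks over the input with MACS2, whose version and threshold are not given in the sources used here. The deposited lists hold a fold enrichment (a ratio) and a −log10 q value per peak. In the lists used, the lowest −log10 q was 1.47 in the morula and 1.43 in TE.

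Autosomal peaks were laid over GRCm38.p6 (mm10) and GENCODE M21 with Python 3.11.15 and NumPy 2.4.6. Windows needed at least 50% assembled bases. CpG islands exceeded 200 bases, 50% GC and an observed-to-expected CpG ratio of 0.6. High-CpG promoters held a 500-base window reaching a ratio of 0.75 at 55% GC, and low-CpG promoters held none over 0.48. Named genes were, per direction, the 10 with the largest change in points among called genes of at least 5 kb, the 5 with the largest change in bases, the 10 promoters with the largest change, called list members, all lineage genes with a peak, the 5 longest runs and the 5 unshared peaks of highest fold. Further called genes were named after their values were seen. Members and gene lists were chosen with earlier results of these data known. Alternatives are given in the closing section. X, Y and mitochondrial peaks were left out of the comparison. A few genes that the rule names are not reported here.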

Additional observations from a re-analysis of the deposited data

Results flagged for a closer look

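Peaks outside the autosomes were not part of the comparison. On chromosome X the morula list held 16585 peaks over 17689 kb and the TE list 12901 peaks over 14792 kb. On chromosome Y, which nuclei of female donors do not carry, the lists held 594 peaks over 521 kb in the morula and 483 peaks over 515 kb in TE. On the mitochondrial chromosome, which has no histones, each list held 2 peaks, and these covered 0.439 kb in the morula and 15.1 kb in TE. They were flagged as signal outside the regions compared. Peaks were called over the inputs, which were not analysed here, and the cause of these peaks was not tested.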

How the results depend on the processing

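Each value rests on 1 pooled list per group, so no replicate could be left out. No paired analysis was possible because the peak caller was given merged libraries. When both lists kept −log10 q values from 2 upwards, the TE to morula ratio of length was 0.82 and 55.4% of morula windows were also marked in TE. With peaks of fold of at least 3, the ratio was 0.838, the share 55.8%, the morula-only windows 51162, and the promoters 342 in the morula only and 241 in TE only. With lists of equal length (lowest-fold morula peaks dropped), the ratio was 1 by construction, the share 59.5%, genes lower in TE 46 against 40 higher, and promoters marked in the morula only 329 against 547 in TE only, so the direction of the promoter counts turned. With a window marked at any base, 155861 windows were in the morula only, 73711 in TE only and 56.8% shared. At 80% coverage these were 49795, 27510 and 51.0%. A gene change of 30 points gave 232 lower and 71 higher genes, and one of 50 points with no minimum in bases 126 and 51. Promoters covered to at least 50% by all peaks together numbered 244 in the morula only and 115 in TE only. Of 38 such values tried, 15 stayed close to the one reported (a count within 1.5 times, a share within its 95% Wilson interval, a ratio within a 95% counting interval from the 2 lengths) and 23 did not.

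Values for gene groups were added after seeing the data. Germline promoters marked in TE only numbered 11 to 19 under 4 alternatives and 3 when peaks had to cover at least 50% of the promoter, with 0 in the morula only under each. High-CpG promoters marked in TE only outnumbered those in the morula only under all 5, and at equal length they were 170 against 18. Low-CpG promoters went the other way, with 278 in the morula only against 258 in TE only at equal length. The ratio over Zfp genes, summed gene by gene, was 1.33 with all peaks and 1.41 to 1.62 under other peak sets, and that over olfactory receptor genes 0.581 and 0.61 to 0.945. With bases of overlapping genes counted once they were 1.32 and 0.578.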
